A study of Homo sapiens with 6 samples.

Results

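The genes described here are 10 genes of the actin cytoskeleton and of serum response factor (SRF), picked by symbol from the 16809 genes of the table. They are SRF itself, the actin genes ACTB, ACTG1 and ACTA2, the actin-binding genes TPM1, CNN1, CNN2, TAGLN and VCL, and the myosin light chain gene MYL9. All 10 symbols were found, and 9 passed the minimum for testing. The tenth, CNN1, lay below it. The cells were CAL-27, an established line from a human squamous carcinoma of the tongue. There were 2 groups of 3 libraries: a control labelled only as normal, and cells given elesclomol together with copper at equal proportions (ES-Cu) for 24 h. No genotype change and no other agent is named for either group, and no dose is stated for either agent in the sources used here. Elesclomol is an ionophore that carries copper into cells, and the series addressed the transcriptome during cuproptosis, a copper-dependent form of cell death. Values are TPM, transcript levels corrected for gene length that sum to one total in each library.

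SRF is a DNA-binding factor that recognises the CArG box in promoters of many cytoskeletal and growth-response genes. It works with alternative partners. MRTF cofactors are held in the cytoplasm by monomeric actin and enter the nucleus when actin polymerises, which ties this branch to genes that build the contractile cytoskeleton. Ternary complex factors (ELK1, ELK3, ELK4) respond to MAP kinase signalling and drive immediate early genes. ACTB and ACTG1 encode the beta and gamma actins of non-muscle cells, while ACTA2, TAGLN and CNN1 are best known from smooth muscle and myofibroblasts.

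CArG boxes were looked for in promoter sequences from RefSeq (GRCh38.p14), each covering 250 bases before and 50 bases after a transcript start, on both strands. Only exact matches to CCWWWWWWGG, where W is A or T, were counted, so a sequence with a mismatch did not count. Of the 10 genes, 7 had a promoter in that table, and ACTB, TAGLN and MYL9 had none. Of the 7, 3 (SRF, ACTG1 and CNN2) held at least 1 such box. The box was present in 1.29% of all 35116 promoters of the table and in 1.60% of its genes. The windows below are shown because these 3 genes carry the box and moved differently in ES-Cu. Windows of 3 further genes of the pathway follow for comparison. Each window is written 5′ to 3′ on the strand of the gene and ends no later than the last base before the start, and capitals mark the box.
SRF, chr6:43171219-43171268, + strand: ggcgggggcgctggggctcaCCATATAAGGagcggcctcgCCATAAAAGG
ACTG1, chr17:81512864-81512913, - strand: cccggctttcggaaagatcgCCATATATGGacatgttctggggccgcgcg
CNN2, chr19:1026499-1026548, + strand: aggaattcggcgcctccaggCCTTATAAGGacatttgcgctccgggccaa
EGR1, chr5:138465376-138465425, + strand: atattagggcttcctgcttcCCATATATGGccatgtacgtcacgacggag
ACTA1, chr1:229434162-229434211, - strand: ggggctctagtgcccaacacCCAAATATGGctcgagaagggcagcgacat
MYLK, chr3:123620613-123620662, - strand: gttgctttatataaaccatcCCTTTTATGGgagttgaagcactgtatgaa
SRF carries a pair of boxes directly before its start, the nearer one ending at the last base upstream. The ACTG1 box lies 85 to 94 bases upstream and has the same letters as the EGR1 box shown. EGR1 holds a second box 96 to 105 bases upstream, and the last letters of that box open the EGR1 window, unmarked. The farther SRF box matches that of the smoothelin gene SMTN.

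The members did not move as one block. On the deposited scale 2 of the 9 tested genes were called higher (ACTG1, TAGLN) and 7 lower, at an adjusted p under 0.05 (limma, Benjamini-Hochberg over all tested genes). The same rule called 13.6% of all 11927 tested genes higher and 70.0% lower, so these shares lie near the background. The median log2 fold change was -0.53 over the 9 genes and -0.50 over all tested genes. Because this shift of the median gene depends on how libraries are scaled, each gene was also tested after median-of-ratios scaling (median of all genes 0.00) and after quantile normalization (-0.07). A gene is said below to rise or fall only where each of the 3 scalings called it, with the same sign. By that rule 2 of the 9 rose, against 13.5% of all tested genes, and 4 fell (ACTA2, TPM1, CNN2, MYL9), against 31.2%. The remaining 3 (SRF, ACTB, VCL) changed sign or call with the scaling. Fold changes are on the log2(TPM + 1) scale, which understates those of low genes, and differences are ES-Cu minus control. Nothing in the labels tells whether libraries of one group were grown as separate cultures. The p-values therefore reflect the scatter among these 6 libraries, possibly a technical one. In bulk RNA, fewer cells of a kind and less RNA per cell cannot be told apart. Depth is unknown, since TPM keeps no read totals.

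**Figure D1:**
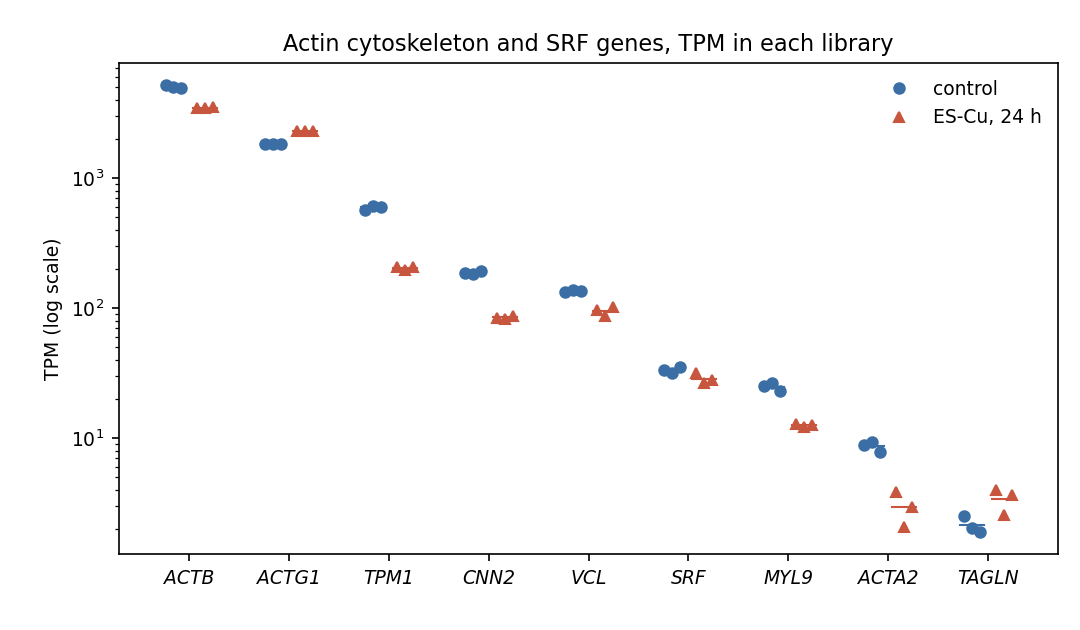
TPM (log axis) of the 9 tested genes in each library, circles for control and triangles for ES-Cu, with lines at the group means (3 libraries each). ACTG1 and TAGLN lie higher in ES-Cu and the other 7 lower on the deposited scale. On that scale 13.6% of all tested genes were called higher and 70.0% lower.

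Of the levels in control, ACTB stood highest at 5026 ± 110 TPM (mean ± SD over the 3 libraries of a group, here and below), followed by ACTG1, TPM1, CNN2, VCL, SRF, MYL9, ACTA2, TAGLN and CNN1. No neighbouring genes overlapped in that order. In ES-Cu the order changed in 2 places: VCL stood above CNN2, by a gap between 87.39 TPM in its lowest library and 87.27 TPM in the highest of CNN2, and TAGLN and ACTA2 overlapped. Together the 10 genes made up 7830 ± 95.2 TPM in control and 6204 ± 84 TPM after ES-Cu, most of it from ACTB and ACTG1.

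SRF, the transcription factor, was measured at 33.57, 31.93 and 35.17 TPM across the controls and at 31.68, 26.62 and 27.89 TPM with ES-Cu. All 3 ES-Cu values lay below the controls, but the closest libraries of both groups differed by little. The log2 fold change was -0.22 ± 0.072 (SE; adjusted p = 0.0141, limma). It turned to 0.32 after median-of-ratios scaling (adjusted p = 0.00116, limma) and to 0.17 under quantile normalization (adjusted p = 0.0363, limma). Relative to the median gene, SRF was therefore higher in ES-Cu, and as a share of all transcripts it was lower. The call on the deposited scale was lost without control replicate 3 (-0.19, adjusted p = 0.0576, limma), and likewise when ES-Cu replicate 2 was omitted (-0.17, adjusted p = 0.0598, limma). It was also lost with the 20 highest genes removed from the total (-0.06, adjusted p = 0.400, limma).

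Of the 5 SRF cofactor genes of the table, 1 fell and the other 4 changed sign or call with the scaling, where 31.2% of all tested genes fell. MRTFB, one of the actin-sensing cofactors, fell from 19.1 ± 1.19 to 6.30 ± 0.305 TPM, a log2 fold change of -1.46 (adjusted p = 2.92e-08, limma). Its paralog MRTFA stood at 13.5 ± 0.454 and 12.2 ± 1.49 TPM, and its log2 fold change of -0.14 (adjusted p = 0.167, limma) became 0.38 after median-of-ratios scaling. The ternary complex factor genes ELK1 (-0.37), ELK3 (-0.03) and ELK4 (-0.20) all took a positive sign after median-of-ratios scaling, at 0.17, 0.52 and 0.30. MYOCD, the cofactor of smooth and cardiac muscle, was looked up but was not among the genes of the table. The difference between the changes of MRTFB and MRTFA was not tested.

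The pair of non-muscle actin genes moved in opposite directions on the deposited scale. ACTB, which encodes beta actin, was at 5148.65, 4990.52 and 4938.22 TPM in control and at 3459.92, 3418.19 and 3534.58 TPM after ES-Cu. Every ES-Cu library lay below every control library, at 69.1% of the control mean. ACTB thus had a log2 fold change of -0.53 ± 0.035 (SE; adjusted p = 1.10e-07, limma). That value lies close to the median of all genes, and after median-of-ratios scaling it was 0.02 (adjusted p = 0.610, limma), while quantile normalization gave -0.72. ACTG1, which encodes gamma actin, was at 1830.45, 1809.68 and 1816.01 TPM in control and at 2300.69, 2292.99 and 2312.98 TPM after ES-Cu. The libraries of each group were close, with coefficients of variation of 0.585% and 0.438%, and the groups did not overlap. ACTG1 rose, with a log2 fold change of 0.34 ± 0.032 (SE; adjusted p = 1.65e-06, limma) as deposited, 0.90 after median-of-ratios scaling and 0.33 under quantile normalization.

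A ratio of both genes within a library does not change when all values of that library are multiplied by one factor, although quantile normalization does change it. ACTB exceeded ACTG1 by 2.76 ± 0.0470 times in control and by 1.51 ± 0.0190 times in ES-Cu. The log2 ratio was 1.49, 1.46 and 1.44 in control and 0.59, 0.58 and 0.61 in ES-Cu, a difference of -0.87. The share of ACTB in the sum of both thus went from 73.4% ± 0.331 to 60.1% ± 0.301, while the sum itself went from 6845 ± 119 to 5773 ± 69 TPM. An exact two-sided permutation test gave p = 0.1, the smallest that 3 against 3 libraries allow (adjusted p = 0.1 over the 4 ratios that could be computed). Both genes have processed pseudogenes and relatives. Of the 50-base windows in their GENCODE v29 coding transcripts, the length of the reads, 6.66% for ACTB and 2.68% for ACTG1 also occurred in a transcript of another gene, and 0.340% of those of ACTG1 occurred in ACTB. Of the POTE genes that share windows with ACTB, POTEF was listed at 5.17 ± 0.406 TPM without and 1.42 ± 0.397 TPM with ES-Cu.

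Actin isoforms of muscle were rare in these cells, and ACTA2 and ACTA1 fell. ACTA2, the smooth muscle alpha actin, was at 8.79, 9.39 and 7.82 TPM in control and at 3.83, 2.08 and 2.98 TPM after ES-Cu. The groups did not overlap, although the ES-Cu libraries spread more, with a coefficient of variation of 29.5% against 9.14% in control. ACTA2 fell by 1.31 ± 0.15 on the log2 scale (adjusted p = 9.15e-06, limma), by 0.85 after median-of-ratios scaling and by 0.69 under quantile normalization. Its log2 ratio to ACTB differed by -1.05 between the groups (exact two-sided permutation p = 0.1). ACTA1, the skeletal muscle actin, fell from 10.5 ± 0.979 to 3.83 ± 0.792 TPM. ACTC1, the cardiac actin, was at 1.45 ± 0.200 and 0.620 ± 0.376 TPM and was not called after median-of-ratios scaling (-0.36, adjusted p = 0.117, limma), and ACTG2 lay below the minimum for testing. Exons of ACTA2 overlap those of FAS on the opposite strand, and 41.3% of its 50-base windows occur in FAS or the antisense gene ACTA2-AS1. Whether the counting used strand was not given in the sources used here, and the part of such reads was not tested. FAS, the death receptor gene, was at 10.2 ± 0.667 TPM without and 8 ± 0.48 TPM with ES-Cu.

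**Figure D2:**
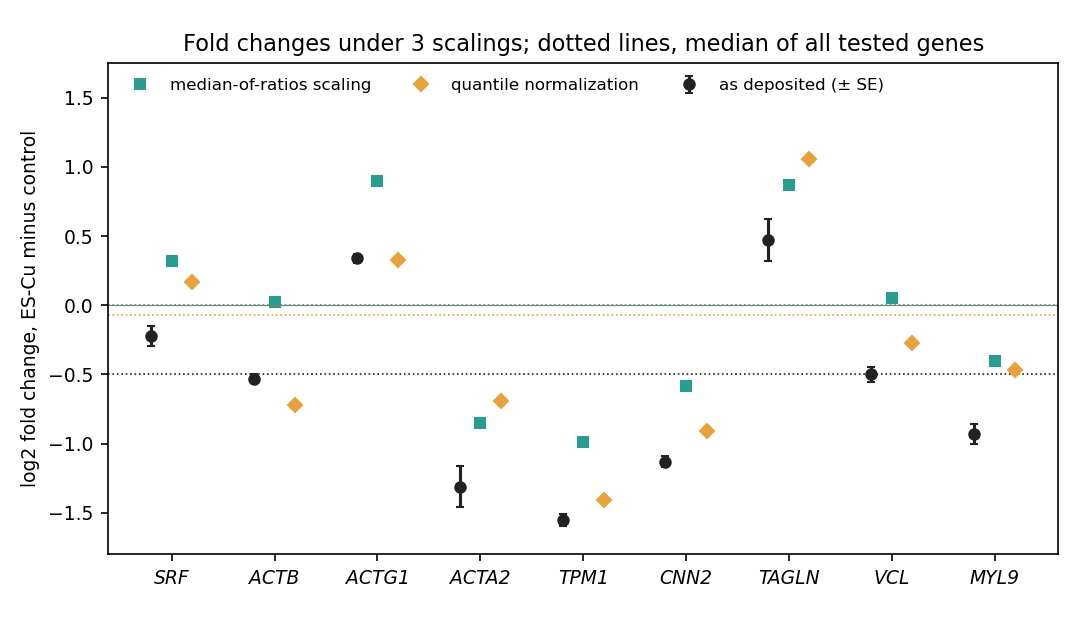
Log2 fold change of the 9 tested genes as deposited (circles, bars show SE), after median-of-ratios scaling (squares) and under quantile normalization (diamonds), with dotted lines at the median of all tested genes in each. ACTG1 and TAGLN lie above 0 and ACTA2, TPM1, CNN2 and MYL9 below 0 in all 3 scalings, while SRF, ACTB and VCL cross 0.

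TPM1 fell at a level far above that of ACTA2, and the 2 genes stood at 34.1% and 34.2% of their control means. TPM1 encodes tropomyosin 1, one of the coiled-coil proteins that lie along actin filaments and set which other proteins bind them. Its level was 567.07, 613.03 and 602.35 TPM in control and 206.21, 196.67 and 205.75 TPM after ES-Cu. The ES-Cu libraries stood at 34.1% of the control mean, far outside the spread of either group. TPM1 fell by 1.55 ± 0.042 on the log2 scale (adjusted p = 1.88e-10, limma), by 0.99 after median-of-ratios scaling and by 1.41 under quantile normalization. Of all tested genes, 3.17% had a log2 fold change at or below that of TPM1. An antisense gene, TPM1-AS, holds 22% of the 50-base windows of TPM1, and its level was not analysed here.

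The other 3 tropomyosin genes did not share that fall. TPM2 went from 359 ± 32.1 to 271 ± 10.8 TPM (log2 fold change -0.40, and 0.15 after median-of-ratios scaling). TPM3 had a log2 fold change of -0.07 (adjusted p = 0.169, limma) and TPM4 one of 0.06 (adjusted p = 0.152, limma), both 0.49 or more after median-of-ratios scaling. Among the 4 genes, TPM1 therefore held the largest share in control, 35.0% ± 0.607 of their summed TPM, and the smallest in ES-Cu, 16.7% ± 0.522. TPM4 went from 22% ± 0.351 to 32% ± 0.0686 and TPM3 from 21.8% ± 0.468 to 29% ± 1.03. The log2 ratio of TPM1 to TPM4 was 0.64, 0.71 and 0.66 in control and -0.96, -0.97 and -0.89 in ES-Cu, a difference of -1.61 (exact two-sided permutation p = 0.1). That ratio changed sign: TPM1 exceeded TPM4 in every control library and was below it in every ES-Cu library.

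**Figure D3:**
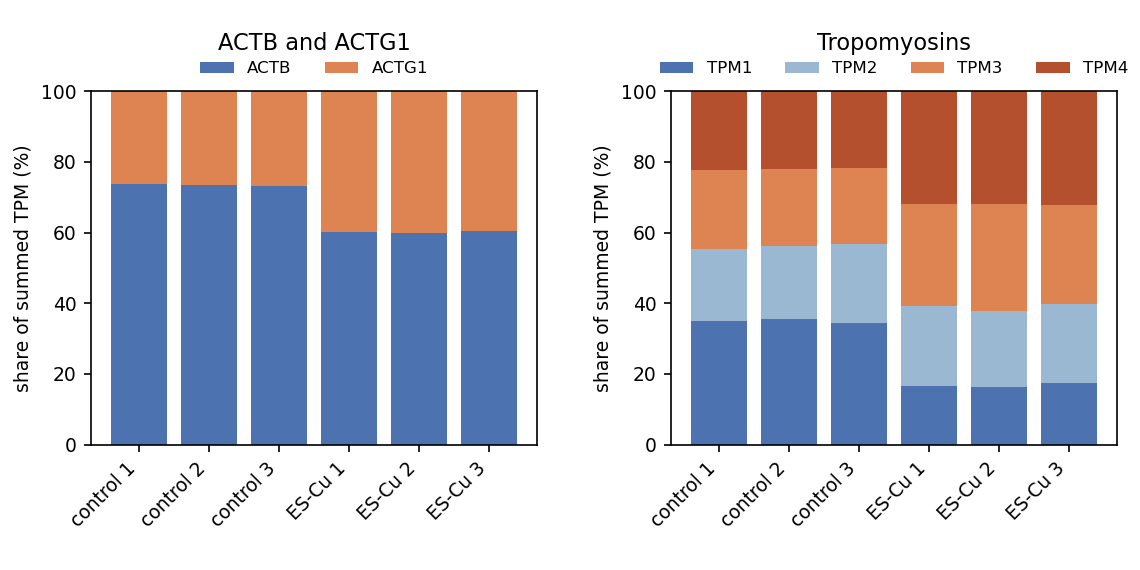
Shares (%) of summed TPM in each library, for ACTB and ACTG1 (left) and for the 4 tropomyosin genes (right). ACTB holds 73.1 to 73.8% of the actin pair in control and 59.9 to 60.4% in ES-Cu, and TPM1 holds 34.4 to 35.6% and 16.3 to 17.3% of the tropomyosins.

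Calponins bind actin and tropomyosin and damp myosin activity. CNN2, the calponin of non-muscle cells, was at 187.18, 182.18 and 192.36 TPM in control and at 84.64, 82.67 and 87.27 TPM after ES-Cu. The ES-Cu mean was 45.3% of the control mean, and the groups were far apart. CNN2 fell by 1.13 ± 0.042 on the log2 scale (adjusted p = 2.49e-09, limma), by 0.58 after median-of-ratios scaling and by 0.91 under quantile normalization. Its paralog CNN3 went from 89.0 to 75.0 TPM on average (log2 fold change -0.25, and 0.31 after median-of-ratios scaling). CNN2 thus made up 67.8% ± 0.877 of the calponin TPM in control and 53.1% ± 1.56 in ES-Cu. CNN1, the smooth muscle calponin, was listed at 0 in control replicate 1 and ES-Cu replicates 1 and 2, and at 0.16, 0.15 and 0.10 TPM in the other libraries. These values are too low for a fold change, and no ratio to CNN2 was formed. Of the 50-base windows of CNN2, 9.74% occur in AC011558.1, a gene on the opposite strand.

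TAGLN, which encodes transgelin or SM22 alpha, a small actin cross-linker of the calponin family, went against CNN2. It was at 2.54, 2.04 and 1.90 TPM in control and at 4.03, 2.56 and 3.63 TPM after ES-Cu. The lowest ES-Cu library was close to the highest control library, and the level was low in both groups. TAGLN rose, with a log2 fold change of 0.47 ± 0.15 (SE; adjusted p = 0.0119, limma) as deposited, 0.87 after median-of-ratios scaling and 1.06 under quantile normalization. Without ES-Cu replicate 1 the call was lost (0.37, adjusted p = 0.0554, limma). The abundant paralog TAGLN2 went from 613 ± 13.8 to 424 ± 12.1 TPM (-0.53, and 0.03 after median-of-ratios scaling). The log2 ratio of TAGLN to TAGLN2 was -7.88, -8.26 and -8.34 in control and -6.70, -7.42 and -6.84 in ES-Cu (exact two-sided permutation p = 0.1), and TAGLN2 stayed far above TAGLN in all 6 libraries. TAGLN3 rose from 4.36 ± 0.505 to 7.07 ± 1.51 TPM. Exons of TAGLN overlap those of PCSK7 on the opposite strand, with 13.2% of its 50-base windows shared. PCSK7 was at 13.0 ± 0.654 and 9.12 ± 0.544 TPM, lower in ES-Cu, and its part in the values of TAGLN was not tested.

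VCL encodes vinculin, which links integrin and cadherin adhesions to actin under tension. Its values were 132.84, 138.41 and 134.13 TPM in control and 96.69, 87.39 and 101.50 TPM after ES-Cu. The groups were separate, with ES-Cu at 70.4% of control. The log2 fold change of VCL was -0.50 ± 0.055 (SE; adjusted p = 6.20e-06, limma), equal to the median of all genes. It was 0.05 after median-of-ratios scaling (adjusted p = 0.373, limma) and -0.27 under quantile normalization (adjusted p = 0.000672, limma). On the opposite strand AP3M1 shares 15.8% of the 50-base windows of VCL, and it stood at 41.3 ± 2.33 and 39.3 ± 0.498 TPM.

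MYL9 encodes a regulatory light chain of myosin II, whose phosphorylation switches contraction on. Levels of MYL9 were 25.06, 26.35 and 23.25 TPM in control and 12.83, 12.27 and 12.68 TPM after ES-Cu, 50.6% of control with no overlap. MYL9 fell by 0.93 ± 0.069 on the log2 scale (adjusted p = 2.72e-07, limma), by 0.40 after median-of-ratios scaling and by 0.47 under quantile normalization. The more abundant light chain genes of non-muscle myosin differed from it. MYL12B rose from 795 to 1072 TPM on average (log2 fold change 0.43), and MYL12A had a log2 fold change of -0.06 (adjusted p = 0.181, limma). Where 13.5% of all tested genes rose and 31.2% fell, 1 of 10 genes in the list of non-muscle myosin II rose and 4 fell. Besides MYL9 these were MYLK, the kinase that phosphorylates the light chain (14.5 ± 0.668 to 4.80 ± 0.411 TPM), and the heavy chain genes MYH10 (40 ± 1.93 to 14.4 ± 1.11 TPM) and MYH14 (log2 fold change -1.29). MYH9, the most abundant heavy chain gene, was at -0.40 as deposited and 0.16 after median-of-ratios scaling.

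Known SRF targets outside the 10 genes were counted in lists by branch. Of 25 tested cytoskeletal targets of the MRTF branch, 6 rose and 1 fell, and 18 changed sign or call with the scaling. Among all tested genes, 13.5% rose and 31.2% fell. The median of that list was -0.02 as deposited, against -0.50 for all tested genes. After median-of-ratios scaling the list median was 0.53, against 0.00 for all tested genes. The matricellular genes CCN2 (11.5 ± 0.835 to 37.8 ± 1.48 TPM) and CCN1 (235 ± 3.89 to 361 ± 11 TPM), which are also targets of YAP, rose. CALD1, which encodes the actin-binding protein caldesmon, was the gene that fell, from 43.7 ± 2.31 to 23.2 ± 2.21 TPM. Of 12 tested immediate early targets of the ternary complex factor branch, 11 rose, and the list median was 1.87. The exception, JUNB, was at 0.04 (adjusted p = 0.529, limma). DUSP1, a MAP kinase phosphatase gene, had a log2 fold change of 3.91, FOSB one of 5.18 and ARC one of 7.01. FOSB and ARC were below 1 TPM in every control library, at 0.51 ± 0.217 and 0.303 ± 0.0808 TPM on average. With 0.1 added to TPM in place of 1, their log2 fold changes were 6.52 and 8.71. The difference between the lists was not tested.

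The CArG box did not mark out one direction. Among 156 tested genes with a box in a RefSeq promoter, 14.1% rose and 28.8% fell, beside 13.3% and 31.0% of 9665 tested genes whose promoters in the table lack it. The medians were -0.46 and -0.50. Of 17 tested genes of the 10 and of the lists that carry a box, 5 rose (ACTG1 and EGR1 among them), 3 fell (CNN2 and ACTA1 among them) and 9, SRF among them, did neither. The box letters shared by ACTG1 and EGR1 went with log2 fold changes of 0.34 and 2.15. The letters shared by CNN2 and the filamin-interacting gene FILIP1L went with -1.13 and 0.21. A match to these letters is a description of the promoter and says nothing of binding.

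Lists of other parts of the actin machinery held genes of both directions. Of 16 genes for monomer binding and filament turnover, 5 fell and 1 rose, where 31.2% and 13.5% of all tested genes did, so the fallen share lies at the background. GSN, which encodes the severing protein gelsolin, fell from 71.1 ± 4.93 to 28.9 ± 0.495 TPM. LIMK2, a kinase that inactivates cofilin, fell from 34.4 ± 1.44 to 15.3 ± 0.151 TPM, and the muscle cofilin gene CFL2 from 26.9 ± 1.68 to 13.4 ± 1.31 TPM. Of 19 nucleation genes 1 fell and 3 rose. The one that fell was EVL, a filament-elongation gene (log2 fold change -1.27), whereas ARPC1A and ARPC1B, both subunits of the Arp2/3 complex, were at -0.59 and -0.62 as deposited but were not called after median-of-ratios scaling (-0.04 and -0.07).

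Among 20 focal adhesion genes, VCL included, 4 rose and 4 fell, where 13.5% and 31.2% of all tested genes did. The genes that rose were ZYX, PXN, LIMS1 and FERMT1. TNS3, which encodes the adhesion adaptor tensin 3, fell from 38.5 ± 1.68 to 9.41 ± 0.968 TPM. PTK2, the focal adhesion kinase gene (-0.93), and ILK, the integrin-linked kinase gene (-0.91), fell as well.

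**Figure D4:**
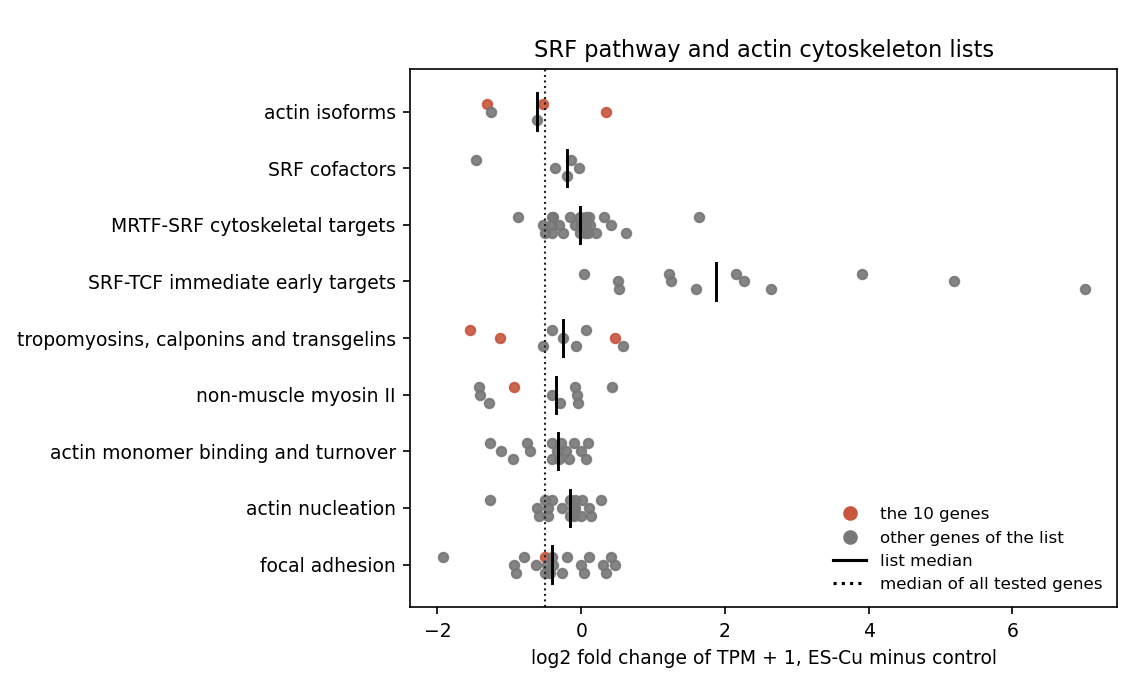
Log2 fold change (ES-Cu minus control, TPM + 1, deposited scale) of the tested genes in 9 lists; red points are among the 10 genes described, grey points are other genes, black bars are list medians and the dotted line is the median of all tested genes at -0.50. The immediate early list is centred at 1.87, and the cytoskeletal lists are centred between -0.62 and -0.02.

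By pattern over the 6 libraries, the genes nearest to SRF were PLEKHM2, ZFYVE9 and ADAM8. Their Euclidean distances in log2(TPM + 1), relative to the control mean, were 0.0595, 0.0685 and 0.0795. ADAM8 encodes a membrane metalloproteinase, PLEKHM2 a lysosome transport adaptor and ZFYVE9 a TGF-beta receptor anchor. Picked for closeness to SRF on the deposited scale, all 3 also changed sign with the scaling, so this adds no separate result. Their log2 fold changes of -0.22, -0.23 and -0.19 became 0.32, 0.29 and 0.35 after median-of-ratios scaling.

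The cell type named in the labels was checked on marker genes. All 9 squamous epithelial markers were detected, of which 2 rose, 2 fell and 5 did neither, with a summed level of 2603 to 2727 TPM in control and 2988 to 3043 TPM in ES-Cu. KRT5 was at 853 TPM in both groups on average. The lowest of the 9 was KRT14, also a keratin gene, far below KRT5. KRT14 averaged 4.73 ± 0.44 TPM over the controls and 4.19 ± 1.1 TPM over the treated libraries, and the groups overlapped. TP63 fell from 86.8 ± 1.34 to 24.5 ± 0.922 TPM and CDH1 fell from 173 ± 2.33 to 71.3 ± 3.01 TPM. SFN rose from 640 ± 31.4 to 1233 ± 19.1 TPM. Since ACTA2, TAGLN and CNN1 are also markers of smooth muscle and myofibroblasts, 10 other markers of those cells were read from the table. Their sum was 12.7 to 13.6 TPM in control and 5.53 to 6.28 TPM in ES-Cu. Of these, 8 stayed below 1 TPM in every library, MYH11 and DES among them, and COL1A1 fell from 8.36 ± 0.362 to 3.62 ± 0.269 TPM. The part of such markers in the values of ACTA2 was not tested.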

How the data were processed

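Per the labels' protocols, total RNA gave 6 libraries with single-end 50-base reads. The deposited values are TPM computed by the authors. The submitters' processing notes list HISAT, Bowtie2 and GRCm38.p6, a mouse build, although 99.7% of the table's identifiers are human RefSeq genes. Which quantifier, annotation and strand setting were used was not given in the sources used here, and TPM keeps no depth, so no counting error was computed.

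Genes averaging 1 TPM or more over the 6 libraries entered a limma 3.58.1 fit (R 4.3.3) of log2(TPM + 1) from the deposited values (mean-variance trend, two-sided, Benjamini-Hochberg over all tested genes, threshold 0.05). The code was tested on simulated data. Ratios used an exact permutation test. Alternatives were 2 scalings, removal of the 20 highest genes, other pseudocounts and filters, no trend, a replicate block, and omission of single libraries.

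The genes and lists were chosen with earlier results of these data known. Named were the 10 genes, all SRF cofactors, up to 3 genes per list by size of change (adjusted p under 0.05, at least 5 TPM in a group, no overlap) and the 3 nearest to SRF. Paralogs, genes sharing exons or promoter boxes, the focal adhesion genes that rose, the lowest squamous marker, and exceptions to counts were named after their values were seen. The results of 1 list are not reported here. Promoters are RefSeq, GRCh38.p14.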

Additional observations from a re-analysis of the deposited data

How the results depend on the processing

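Genes called higher and lower numbered 1628 and 8351 as deposited, 4532 and 4266 after median-of-ratios scaling, and 3749 and 4756 under quantile normalization. Of the 10 genes, 4 were called lower after median-of-ratios scaling instead of 7. Among the genes named by rule, the sign turned under that scaling for SRF (0.32), ACTB (0.02), VCL (0.05), MRTFA (0.38), ELK1 (0.17), ELK3 (0.52), ELK4 (0.30), TAGLN2 (0.03), TPM2 (0.15), PLEKHM2 (0.32), ZFYVE9 (0.29) and ADAM8 (0.35). Under quantile normalization it turned for SRF (0.17), MRTFA (0.37), ELK1 (0.04), ELK3 (0.34), ELK4 (0.37), PLEKHM2 (0.16), ZFYVE9 (0.26) and ADAM8 (0.22), and with the 20 highest genes removed for MRTFA (0.01) and ELK3 (0.13). Of the genes named outside the rule, it turned after median-of-ratios scaling for MYH9 (0.16), CNN3 (0.31), TPM3 (0.49), MYL12A (0.50), KRT14 (0.29), FAS (0.19), PCSK7 (0.04) and AP3M1 (0.48). All of these but MYH9 also turned under quantile normalization (0.02 to 0.48). With a filter of 5 TPM, TAGLN was not tested and 1 of the 10 genes was called higher. Leaving out one library gave 1 to 2 of them called higher. ACTG1, ACTA2, TPM1, CNN2 and MYL9 kept sign and call under every alternative run. The 4 ratios kept their sign under every alternative run. Same-numbered libraries did not deviate together from their group means (r of 0.021, -0.034 and 0.011), and a fit with the replicate number as a block called 1614 genes higher and 8343 lower, with 2 and 7 of the 10 genes. Among the genes named by rule, the only single genes compared under the block, it ended the call of ELK4 alone (adjusted p = 0.0560, limma), which was also lost under other alternatives (adjusted p = 0.0503 to 0.539). Depth is unknown, so no counting error is given for the low values of TAGLN, ACTA2 and CNN1.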

Other observations

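Within the ES-Cu group, replicate 2 had the lowest deposited TPM for all 9 tested genes of the 10. The same library was lowest for 47.0% of all 11927 tested genes, against 22% for replicate 1 and 30.9% for replicate 3. After median-of-ratios scaling it was lowest for 4 of the 9 genes and 31.6% of all tested genes. Without that library, ACTG1 and TAGLN were still called higher, and 6 of the 10 genes were called lower instead of 7, the difference being SRF.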
